A study of Mus musculus with 12 samples.

Results

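Mouse Fc receptor genes were followed through the conversion of a B lineage cell line by an inducible transcription factor. The genes were Fcgr1, Fcgr2b, Fcgr3, Fcgr4, Fcer1g, Fcer2a, Fcgrt and Fcrla. They were chosen by name, with earlier results of these data known. Every probe set that the platform annotation gives to 1 of these symbols was taken. This gave 16 probe sets of 8 genes among 45037 probe sets that are not array controls. A total of 12 of the 16, in 7 genes, passed the filter on low signals and were tested, and the other 4 are described below by their signals alone.

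Mouse cell lines in 6 conditions were measured on 12 one-colour Affymetrix arrays, 2 per condition, in a series titled for the reprogramming of B cells into macrophages. C10 cells hold an inducible form of C/EBPα, a transcription factor of the myeloid lineage, and were given beta estradiol for 3, 12, 24 or 48 h. HAFTL, a line from fetal liver transformed with the Ha-ras oncogene, was also given beta estradiol, and C10 given ethanol served as vehicle control. All C10 arrays, the vehicle arrays included, thus come from cells that hold the construct, whereas the labels do not say that HAFTL holds it, and they give no duration for HAFTL or for vehicle. The labels do not say that the 2 samples of a condition were separate cultures, so the p-values reflect only how far duplicates differed, possibly for technical reasons, and the number of arrays limits the precision.

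Fc receptors bind the constant part of antibodies and so connect antibody to the cells that act on it. In mice, the products of Fcgr1, Fcgr3 and Fcgr4 are activating IgG receptors that need the common gamma chain, encoded by Fcer1g, for surface expression and for signalling through its activation motif (ITAM), whereas Fcgr2b encodes the inhibitory IgG receptor, which is found on B cells and on macrophages. Fcer2a encodes the low-affinity IgE receptor CD23 of mature B cells, Fcgrt the heavy chain of the neonatal Fc receptor, which pairs with β2-microglobulin and protects IgG from degradation, and Fcrla an intracellular relative of the family in B cells.

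Against vehicle C10, the 3 activating receptor genes, the gamma chain and the inhibitory receptor were all higher at 24 h and 48 h of estradiol, and Fcrla was lower at every time. The way there differed by gene: at 3 h no tested probe set was higher, and 7 of 12, from Fcgr1, Fcgr2b and Fcrla, were lower. Among all 26524 probe sets tested, 20.3% were lower and 20.6% higher at 3 h, by limma with Benjamini-Hochberg adjustment at adjusted p below 0.05. At 12 h 1 member probe set was higher and 3 were lower, against 22.1% and 21.7% of all probe sets. At 24 h 9 were higher and 2 lower (23.7% and 26.4% of all), and at 48 h the counts were again 9 and 2 (25.5% and 30% of all). The median log2 change of the 12 probe sets was -0.52 after 3 h, -0.14 after 12 h, 1.05 after 24 h and 1.53 after 48 h, against 0.03, 0.01, -0.04 and -0.06 over all probe sets. These counts and medians describe the probe sets that passed the filter. Those of Fcgr3, Fcgr4 and Fcgrt passed it only through arrays of estradiol-treated C10, a choice that favours rises in the counts and medians. Of these genes Fcgrt was still called in no comparison. The 4 comparisons share the same vehicle arrays. With arrays scaled to their spike-in controls instead, the medians at the 4 times were 0.27, 0.77, 1.56 and 2.24. Both early medians thus turned sign, and 1 probe set was lower at 3 h. Fcgr2b supplied 4 of the 12 probe sets, 4 of the 7 falls at 3 h and 4 of the 9 rises at 24 h and 48 h. Under either scaling, the middle values that set the median were those of Fcgr2b at each time. The medians and their turn of sign therefore describe Fcgr2b more than the family.

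**Figure D1:**
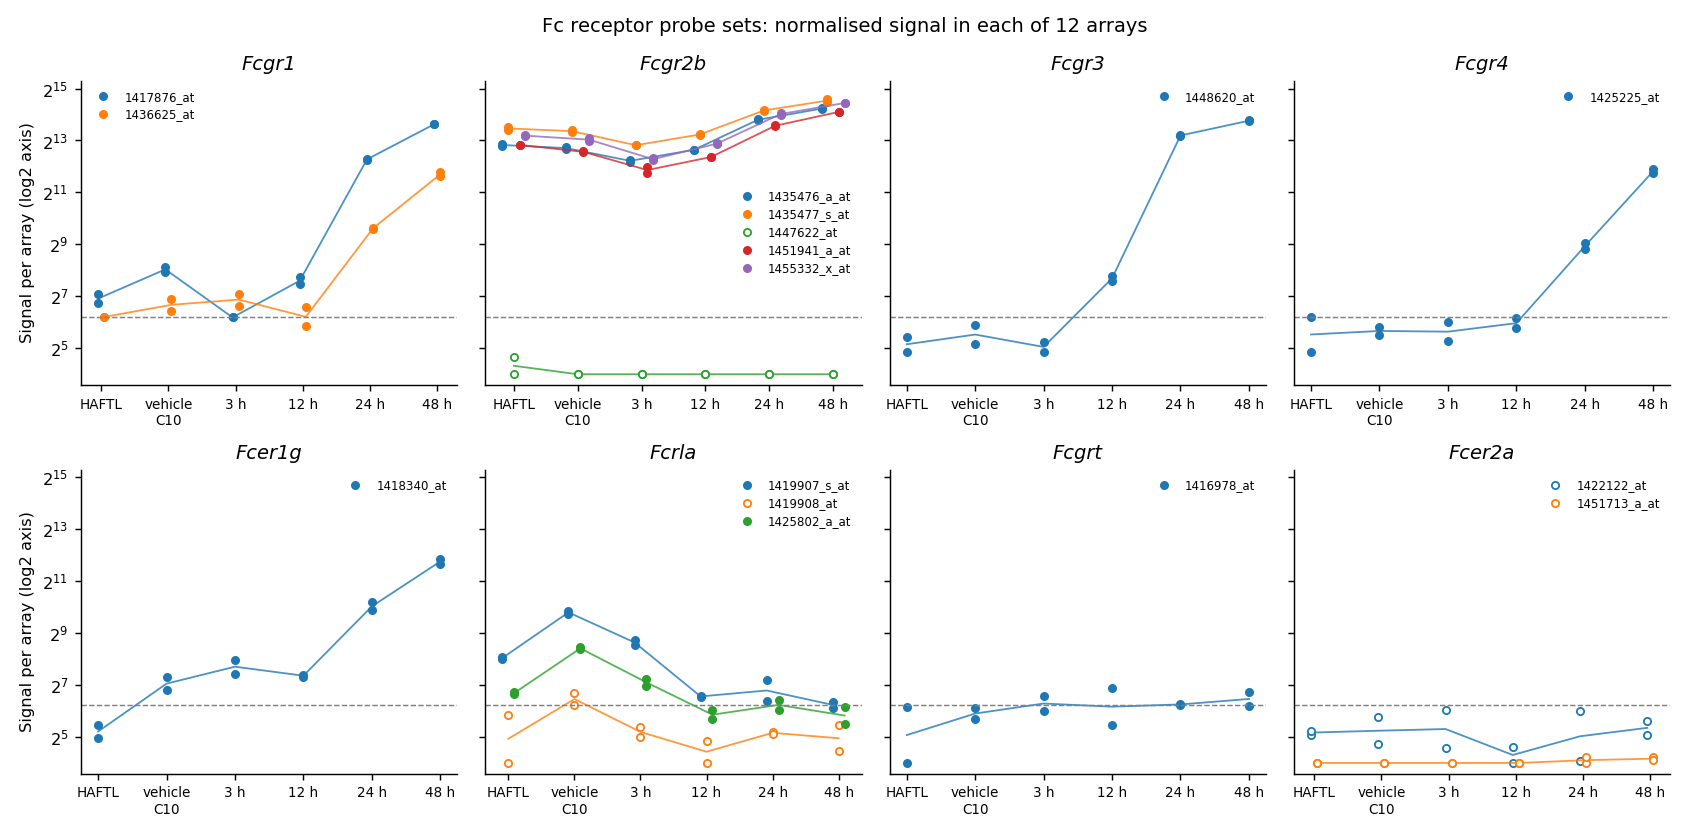
Normalised signal of each Fc receptor probe set in each array (log2 axis, 2 arrays per condition as points, lines through the geometric means); the conditions are evenly spaced and the dashed line is the filter level of 74.6. Filled points belong to the 12 probe sets tested, and the plot shows 1 probe set of Fcgr1 and those of Fcgr2b dipping at 3 h before they rise, which for Fcgr2b holds relative to the other probe sets and not under spike-in scaling.

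Signals are relative to the other probe sets on the same array, and this matters at the early times. When arrays were scaled to their poly-A spike-in controls instead, the median change of all probe sets was 0.70 after 3 h, 0.74 after 12 h, 0.26 after 24 h and 0.51 after 48 h on the log2 scale, and 88.7% of the calls at 3 h were rises, against 50.4% after quantile normalisation. The spike-in controls themselves varied between duplicates, with mean log2 signals of 8.39 and 7.40 in the 48 h arrays. Changes below are therefore changes relative to all probe sets, and where spike-in scaling turned a printed change of a member or ended its call, this is said beside it or with the steps between times.

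The deposited values had equal trimmed means in all arrays, and duplicates correlated at 0.97 to 0.975 over the probe sets tested. The 5′ to 3′ signal ratio of the Actb control was 0.746 to 0.848 in the 8 arrays of estradiol-treated C10, 0.691 and 0.740 in HAFTL, and 0.582 and 0.638 in vehicle C10. This ratio therefore moves with every comparison against vehicle C10, and its part in the results was not tested. B lineage markers were high in HAFTL and in vehicle C10: their summed signal was 18760 to 20630 at 48 h, 123200 to 123600 in HAFTL, and 113400 to 115100 in vehicle C10, and all 10 markers tested were lower at 48 h. The summed signal of 9 macrophage markers was 138100 to 140400 at 48 h, against 3422 to 3655 in vehicle C10, with 8 of 9 higher at 48 h. Of 9 granulocyte markers on the array 4 were tested and 3 were higher at 48 h (Camp, S100a8 and Prtn3), with a sum of 9962 to 11380 at 48 h against 261.6 to 377.1 in vehicle C10. The arrays are of bulk RNA, so more cells of a type and more RNA per cell cannot be told apart in any result below, nor can fewer cells and less RNA per cell.

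The stretch before the start of transcription is shown for the 6 genes whose signals changed, because they moved at different times and sequence there could be set beside those courses. Sequences are from RefSeq, build GRCm38.p6, and run 5′ to 3′ on the gene's strand over the 180 bases before the first listed start. They lie at chr3:96293970-96294149 (minus strand) for Fcgr1, chr1:171059404-171059583 (minus) for Fcgr3, chr1:171018746-171018925 (plus) for Fcgr4, chr1:171234350-171234529 (minus) for Fcer1g, chr1:170976072-170976251 (minus) for Fcgr2b and chr1:170927584-170927763 (minus) for Fcrla. Capitals mark matches to the core of PU.1 sites (GAGGAA, which reads TTCCTC on the other strand), to C/EBP sites (TTNNGNAA) or to STAT sites (TTCNNNGAA), all searched on both strands.
Fcgr1: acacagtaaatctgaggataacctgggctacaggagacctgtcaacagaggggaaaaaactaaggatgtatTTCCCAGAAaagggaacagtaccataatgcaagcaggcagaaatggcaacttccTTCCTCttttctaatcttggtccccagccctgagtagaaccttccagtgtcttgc
Fcgr3: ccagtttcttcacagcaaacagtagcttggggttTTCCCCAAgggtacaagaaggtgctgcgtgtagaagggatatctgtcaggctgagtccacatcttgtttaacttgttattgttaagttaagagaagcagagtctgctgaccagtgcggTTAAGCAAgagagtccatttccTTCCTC
Fcgr4: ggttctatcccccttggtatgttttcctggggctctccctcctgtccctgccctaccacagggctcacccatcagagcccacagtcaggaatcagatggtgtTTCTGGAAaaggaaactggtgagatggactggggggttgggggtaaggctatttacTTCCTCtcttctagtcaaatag
Fcer1g: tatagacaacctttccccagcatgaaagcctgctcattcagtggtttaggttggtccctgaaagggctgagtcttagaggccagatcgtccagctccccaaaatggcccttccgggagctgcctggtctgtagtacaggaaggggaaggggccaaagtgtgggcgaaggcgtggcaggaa
Fcgr2b: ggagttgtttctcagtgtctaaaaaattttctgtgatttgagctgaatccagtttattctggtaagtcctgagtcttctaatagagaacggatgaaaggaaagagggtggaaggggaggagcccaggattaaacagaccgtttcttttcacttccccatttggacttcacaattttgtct
Fcrla: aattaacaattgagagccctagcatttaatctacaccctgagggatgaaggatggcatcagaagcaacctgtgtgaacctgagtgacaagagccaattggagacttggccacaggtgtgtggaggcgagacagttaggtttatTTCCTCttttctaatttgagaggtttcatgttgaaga

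Over the full 250 bases before the start, the PU.1 core was found in 4 of 8 members (Fcgr1, Fcgr3, Fcgr4 and Fcrla) and in 23.1% of 27025 promoters. The C/EBP letters were found in 5 of 8 members, counting any listed start, and in 36.9% of all promoters with 1 start each. Fcgr3 held 2 C/EBP matches, at -146 to -139 and at -28 to -21, and Fcgr4 held 1 at -78 to -71. Those of Fcrla (-218 to -211) and Fcgrt (-239 to -232) lie outside the stretch printed, and that of Fcer2a (-185 to -178) belongs to its second listed start. The STAT letters occurred in Fcgr1 alone among the members, at -109 to -101, and in 7.18% of all promoters. EBF sites occurred in 0 of 8 members and in 0.788% of all promoters. No searched motif was found before Fcgr2b or Fcer1g. A match is a run of letters, not a shown binding site, and a window without one says nothing about the factor.

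**Figure D2:**
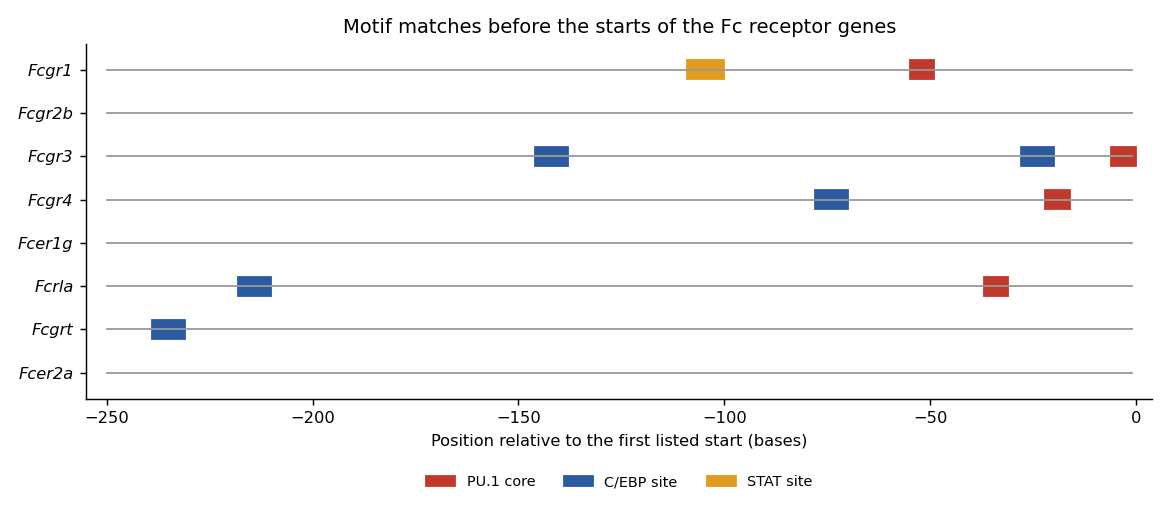
Positions of the motif matches in the 250 bases before the first listed start of each member gene (horizontal axis in bases relative to the start, boxes to scale). The PU.1 core lies within 60 bases of the start in the 4 genes that have it, namely Fcgr1, Fcgr3 and Fcgr4, which rose, and Fcrla, which fell. The distance of 60 bases was chosen after the sequences had been seen.

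Fcgr1 encodes the high-affinity IgG receptor CD64, a macrophage marker. Its probe set 1417876_at had signals of 248.0 and 278.3 in vehicle C10, 73.0 and 72.8 after 3 h, 178.2 and 211.7 after 12 h, 4904 and 4999 after 24 h, and 12692 and 12589 after 48 h. Both 3 h arrays lay below both vehicle arrays and just under the filter level, both 12 h arrays lay between, and the 24 h and 48 h arrays lay far above. At 3 h the signal was at least 3.52-fold lower than in vehicle C10 (adjusted p = 4.89e-05). The dip was also seen with spike-in scaling, where the log2 change at 3 h was -1.26 (adjusted p = 0.0447).

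From there the signal of this probe set climbed in every step. At 12 h it was at least 2.60-fold higher than at 3 h (adjusted p = 0.000547, and 0.0765 under spike-in scaling). It was still below vehicle C10 at 12 h, by a log2 change of -0.44 ± 0.14 (SE, n = 2 per group, adjusted p = 0.0348), a value that turned to 0.28 under spike-in scaling and to 0.69 with HAFTL as the control. The step to 24 h was the steepest, 25.5-fold over 12 h (adjusted p = 1.2e-06), and brought the signal to 18.8-fold that of vehicle C10 (adjusted p = 6.29e-07). At 48 h it was 48.1-fold that of vehicle C10 (log2 change 5.59 ± 0.14, SE, adjusted p = 1.23e-07), and 2.55-fold that at 24 h (adjusted p = 0.00097, and 0.0629 under spike-in scaling). On the log2 scale 75.8% of the 48 h change had been reached at 24 h.

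The second probe set of Fcgr1, 1436625_at, did not show the dip. Its signals were 86.7 and 120.0 in vehicle C10, 137.7 and 100.02 after 3 h, 57.6 and 95.3 after 12 h, 775.0 and 797.6 after 24 h, and 3166 and 3490 after 48 h. The 3 h and vehicle arrays overlapped, with a log2 change at 3 h of 0.20 ± 0.26 (SE, adjusted p = 0.585). Both probe sets rose at 24 h and 48 h, this one by 2.95 ± 0.26 and 5.03 ± 0.26 on the log2 scale (adjusted p = 6.19e-05 and 2.76e-06). Both 12 h arrays lay below both 3 h arrays, a change of -0.66 that was not called (adjusted p = 0.115). The probe sets of Fcgr1 thus disagree on the 3 h fall and on the direction from 3 h to 12 h.

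Fcgr3 encodes the low-affinity activating IgG receptor CD16, and it started from no measurable level. Probe set 1448620_at gave 59.7 and 35.7 in vehicle C10 and 28.8 and 38.2 after 3 h, all under the filter level, then 194.7 and 220.0 after 12 h. At 24 h it gave 9601 and 9111, and at 48 h 14024 and 13735. No array of 12 h or later overlapped vehicle C10, and this was the 1 member probe set called higher by then, at least 2.77-fold over vehicle C10 (adjusted p = 0.000582).

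The step from 12 h to 24 h raised Fcgr3 by 5.50 ± 0.28 on the log2 scale (SE, adjusted p = 7.99e-06), the largest such step of the tested members. Against vehicle C10 it was higher by at least 125-fold at 24 h and at least 186-fold at 48 h (adjusted p = 1.01e-06 and 3.99e-07). The further change from 24 h to 48 h, 0.57 on the log2 scale, was not called (adjusted p = 0.206). By the fitted values, 93.1% of the 48 h change had been reached at 24 h.

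Fcgr4, the third activating IgG receptor gene, was called higher later than Fcgr3, first at 24 h, as Fcgr1 was. Probe set 1425225_at gave 57.0 and 45.3 in vehicle C10, 64.7 and 38.4 after 3 h, 54.5 and 71.9 after 12 h, 450.8 and 528.5 after 24 h, and 3427 and 3813 after 48 h. All arrays up to 12 h were under the filter level and overlapped, and both later times stood clear of them. The rise over vehicle C10 was at least 6.54-fold at 24 h and at least 48.4-fold at 48 h (adjusted p = 0.000478 and 1.16e-05). Between 24 h and 48 h the signal rose by 2.89 ± 0.43 on the log2 scale (SE, adjusted p = 0.00446), and 53.1% of the fitted 48 h change had been reached at 24 h.

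Fcer1g, whose gamma chain these receptors need, was measurable before any of them rose. Probe set 1418340_at gave 110.8 and 159.2 in vehicle C10, 252.6 and 172.5 after 3 h, 159.9 and 168.3 after 12 h, 1162 and 938.3 after 24 h, and 3700 and 3236 after 48 h. Both 3 h and both 12 h arrays exceeded both vehicle arrays, but neither change was called: on the log2 scale it was 0.65 ± 0.26 after 3 h and 0.31 ± 0.26 after 12 h (SE, adjusted p = 0.0814 and 0.384). The gene rose by 2.98 ± 0.26 at 24 h and by 4.70 ± 0.26 at 48 h (adjusted p = 5.44e-05 and 3.57e-06), with a step from 24 h to 48 h of 1.73 (adjusted p = 0.0046). HAFTL with estradiol gave 31.3 and 43.8, under the filter level and below every 3 h and 12 h array. The mean log2 signal was 5.21 in HAFTL against 7.05 in vehicle C10. The early changes of Fcer1g were thus larger with HAFTL as the control. The gamma chain also serves the IgE receptor of mast cells and basophils. Of 8 listed markers of those cells 7 were on the array, and 4 (Fcer1a and Ms4a2, the other chains of that receptor, and the proteases Cpa3 and Mcpt8) were under the filter level in all 12 arrays. Of the 2 tested, 1 was higher at 48 h: Hdc, the enzyme that makes histamine, had mean signals of 22.7 in vehicle C10, 43.8 after 3 h, 158.5 after 12 h, 767.6 after 24 h and 522.3 after 48 h. The summed signal of the list was 626.5 to 837.1 at 48 h, against 198.2 to 284.2 in vehicle C10, and its part in the result was not tested.

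Fcgr2b, the inhibitory receptor, was high throughout and changed least among the genes that rose. The probe set 1435477_s_at gave 10273 and 10741 in vehicle C10, 7239 and 7192 after 3 h, 9654 and 9540 after 12 h, 17814 and 18587 after 24 h, and 23054 and 24468 after 48 h. Arrays at 3 h and 12 h lay below vehicle C10 without overlap, and those at 24 h and 48 h lay above. Relative to all probe sets its log2 signal fell by 0.54 ± 0.09 at 3 h (SE, adjusted p = 0.0019), but under spike-in scaling its change at 3 h was 0.36 (adjusted p = 0.548). Its change at 12 h was -0.13 (adjusted p = 0.264), or 0.78 under spike-in scaling (adjusted p = 0.179), and it rose by 0.79 ± 0.09 at 24 h and 1.18 ± 0.09 at 48 h (adjusted p = 0.000175 and 1.5e-05).

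The other tested Fcgr2b probe sets followed the same course. At 3 h 1435476_a_at, 1451941_a_at and 1455332_x_at changed by -0.49, -0.70 and -0.75 on the log2 scale (adjusted p = 0.00182, 0.00107 and 0.000335), and under spike-in scaling by 0.39, 0.17 and 0.16, none of them called. At 12 h 1435476_a_at changed by -0.07 (0.80 under spike-in scaling). At 48 h the 3 probe sets rose by 1.52, 1.54 and 1.41 (adjusted p = 2.37e-06, 7.66e-06 and 5.09e-06), with signals of 17476 to 22426 at 48 h against 5977 to 8648 in vehicle C10. Over the 12 arrays the log2 signals of the 4 tested probe sets correlated with each other at 0.988 to 0.997, as a description. The fifth Fcgr2b probe set, 1447622_at, lay at the floor of 16 in all but 1 HAFTL array (25.1) and was not tested. Fcgr2b and Fcgr3 encode closely related proteins, and probe sets named _s_at or _x_at may hold probes that match other transcripts, so part of these signals could come from a relative.

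**Figure D3:**
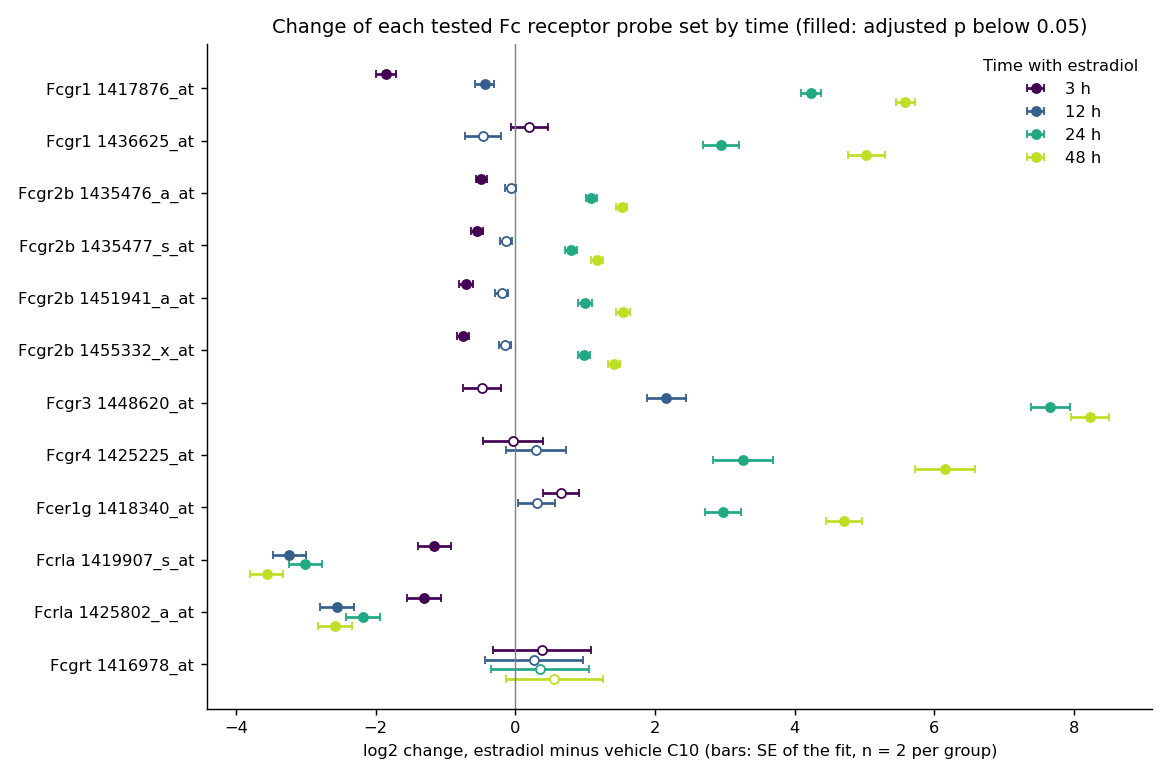
Fitted log2 change of each tested probe set against vehicle C10 at each time (points, bars are the SE of the fit, n = 2 arrays per group); filled points passed adjusted p below 0.05. Fcgr3 and Fcgr4 values are fitted against vehicle signals under the filter level, and the 3 h falls of Fcgr2b (-0.49 to -0.75) turned to 0.16 to 0.39 under spike-in scaling.

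Fcrla fell early and stayed low. Its probe set 1419907_s_at gave 922.8 and 857.3 in vehicle C10, 373.7 and 426.0 after 3 h, 92.8 and 96.1 after 12 h, 83.1 and 147.4 after 24 h, and 70.2 and 80.8 after 48 h. Every estradiol array lay below both vehicle arrays, and the arrays of 12 h and later lay below both 3 h arrays. HAFTL with estradiol gave 269.8 and 257.6, also below both 3 h arrays, so with HAFTL as the control the 3 h change turned positive. Against vehicle C10 the course was as follows. The log2 change was -1.16 ± 0.24 after 3 h, -3.24 ± 0.24 after 12 h, -3.01 ± 0.24 after 24 h and -3.56 ± 0.24 after 48 h (SE, adjusted p = 0.00619, 3.99e-05, 3.27e-05 and 9.04e-06), with 1 of the 48 h arrays under the filter level. At 12 h 90.8% of the 48 h change had been reached, and the changes from 12 h to 24 h and from 24 h to 48 h were not called (adjusted p = 0.515 and 0.154).

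The second tested Fcrla probe set, 1425802_a_at, gave 349.7 and 331.7 in vehicle C10 and 125.4 and 150.5 at 3 h, a log2 change of -1.31 ± 0.24 (SE, adjusted p = 0.00395). It was at least 4.56-fold lower than in vehicle C10 at 12 h and at 48 h (adjusted p = 0.000136 and 5.89e-05). HAFTL with estradiol gave 106.3 and 100.8, again below both 3 h arrays. With spike-in scaling the 3 h changes of the 2 probe sets were -0.53 and -0.74 and not called (adjusted p = 0.392 and 0.205), while those at 12 h stayed called (-2.55 and -1.89, adjusted p = 0.000373 and 0.00272). The third, 1419908_at, exceeded the filter level in 1 array, of vehicle C10 (104.3), and lay between 16 and 58.1 in HAFTL and in estradiol-treated C10. The summed B lineage marker signal was 36780 to 37670 at 3 h and 28000 to 28500 at 12 h, so it fell with Fcrla, and its part in this result was not tested.

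Fcgrt and Fcer2a gave no change that could be measured. Fcgrt 1416978_at gave 52.1 and 68.5 in vehicle C10, 94.6 and 64.5 after 3 h, 117.2 and 43.998 after 12 h, 75.4 and 77.2 after 24 h, and 73.3 and 106.1 after 48 h. Its duplicates differed by as much as the conditions did, and it was called in no comparison (adjusted p of 0.951 in a moderated F test over the 5 C10 conditions). Fcer2a lay between 16 and 65.8 for 1422122_at and between 16 and 18.7 for 1451713_a_at, under the filter level in every array. By the same F test the other 11 of the 12 tested probe sets varied over the 5 C10 conditions, as did 69% of all probe sets.

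The steps between times order these courses. From 3 h to 12 h 6 member probe sets rose (1 of Fcgr1, 4 of Fcgr2b and Fcgr3), against 12.1% of all probe sets, and both of Fcrla fell, against 11.2%. From 12 h to 24 h 9 rose, against 16.5% of all, and 0 fell by limma, where 18.1% of all probe sets fell. From 24 h to 48 h 8 still rose, which 7.26% of all probe sets did, and only Fcgr3 of the 9 was no longer called. Over the whole span, 9 were higher and 2 lower at 48 h than at 3 h, where 26.5% and 29.1% of all probe sets were. With spike-in scaling the 6 rises of the first step became 1, that of Fcgr3, and 1 Fcrla probe set still fell. The 9 rises of the next step became 5, without those of Fcgr2b, and the 8 of the last became 3 (Fcgr1 1436625_at, Fcgr4 and Fcer1g).

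In HAFTL with estradiol, Fcer1g, Fcrla and, by its probe set 1417876_at alone, Fcgr1 were lower than in vehicle C10. By probe set, 4 of 12 probe sets were lower, where 4.98% of all were, and 0 were higher, where 4.42% of all were (limma, Benjamini-Hochberg adjustment). Fcgr1 1417876_at gave 135.9 and 106.9 in HAFTL, against 248.0 and 278.3 in vehicle C10, a log2 change of -1.12 ± 0.14 (SE, adjusted p = 0.00382). The other Fcgr1 probe set, 1436625_at, changed by -0.46 and was not called (adjusted p = 0.329), with both HAFTL arrays just under the filter level. Fcer1g gave 31.3 and 43.8 in HAFTL, at least 1.78-fold lower than in vehicle C10 (adjusted p = 0.00664).

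Fcrla 1419907_s_at gave 269.8 and 257.6 in HAFTL, against 922.8 and 857.3 in vehicle C10, a change of -1.75 (adjusted p = 0.0057), and the change of 1425802_a_at was -1.72 (adjusted p = 0.00682). Each of these HAFTL arrays lay below both vehicle arrays, and with spike-in scaling the changes were close in size, -0.97 for Fcgr1, -1.63 for Fcer1g and -1.59 and -1.57 for Fcrla, but 0 of the 4 was called (limma, adjusted p of 0.12 to 0.737). The tested Fcgr2b probe sets did not differ by this test (changes of 0.10 to 0.27, adjusted p of 0.142 to 0.518), and Fcgr3 and Fcgr4 were under the filter level in both lines. The HAFTL comparison does not separate the cell line from the estradiol it was given.

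Signalling partners changed in opposite directions. Tyrobp encodes DAP12, the other ITAM adaptor of myeloid cells. Its course resembled that of Fcgr1 1417876_at, whereas Fcgr1 1436625_at had no dip at 3 h. The log2 change of Fcgr1 1417876_at at 12 h was -0.44, or 0.28 under spike-in scaling. Unlike that probe set, Tyrobp was called higher than vehicle C10 at 12 h (0.74, limma, adjusted p = 0.00348). It gave 214.7 and 214.9 in vehicle C10, 68.6 and 55.6 after 3 h, 327.6 and 395.3 after 12 h, 19482 and 19561 after 24 h, and 30028 and 31701 after 48 h. It was at least 2.88-fold lower than in vehicle C10 at 3 h (adjusted p = 5.65e-05, and -1.18 with adjusted p = 0.0546 under spike-in scaling) and its log2 signal rose by 7.17 ± 0.14 at 48 h (SE, adjusted p = 4.82e-08).

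Syk, the kinase recruited to phosphorylated ITAMs, gave 1136 and 1183 after 3 h and 1917 and 1972 after 48 h, against 3421 and 3214 in vehicle C10. It fell at each time relative to all probe sets, by 1.52 ± 0.08 at 3 h and by 0.77 ± 0.08 at 48 h on the log2 scale (SE, adjusted p = 1.54e-05 and 0.000138), but was called at no time with spike-in scaling. Inpp5d encodes SHIP1, the phosphatase through which the inhibitory receptor acts. It fell by 1.09 ± 0.12 at 3 h and by 1.78 ± 0.12 at 48 h (SE, adjusted p = 0.000261 and 8.05e-06), and Fcgr2b, which also fell at 3 h, rose at 48 h. With spike-in scaling the change of Inpp5d was -0.24 at 3 h and -1.17 at 48 h (adjusted p = 0.702 and 0.0553), and it was called at 24 h alone (-1.56, adjusted p = 0.0179).

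**Figure D4:**
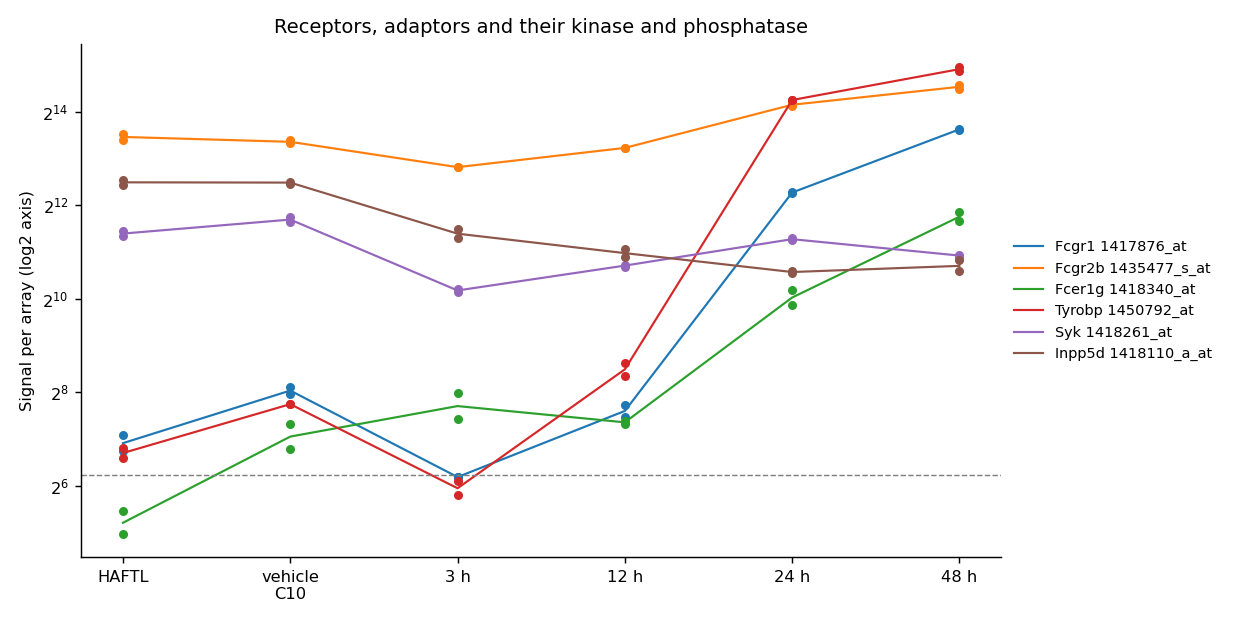
Normalised signal per array (log2 axis, 2 arrays per condition as points, lines through the geometric means) of 3 Fc receptor probe sets with Tyrobp, Syk and Inpp5d; the dashed line is the filter level, and levels can be compared along a line but not between lines. This probe set of Fcgr1 and Tyrobp dip at 3 h and rise steeply between 12 h and 24 h, whereas Syk and Inpp5d lie below vehicle C10 at each later time, a fall that under spike-in scaling was called at no time for Syk and at 24 h alone for Inpp5d.

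Among 12 other Fc receptors and partners, 5 were tested, and at 48 h 2 were higher and 2 lower, where 23.5% and 37.1% of all 11696 genes tested were. Fcrl1, a B cell relative of the Fc receptors, fell by 2.20 ± 0.26 at 3 h and by 5.18 ± 0.26 at 48 h on the log2 scale (SE, adjusted p = 0.000438 and 2.21e-06). Fcmr, the IgM Fc receptor, fell by 1.22 ± 0.35 at 3 h (adjusted p = 0.0253, and by 0.61 with adjusted p = 0.296 under spike-in scaling) and was at least 2.60-fold lower at 12 h, 24 h and 48 h (adjusted p at 48 h = 6.87e-05). B2m, the β2-microglobulin partner of Fcgrt, changed by -0.45 ± 0.08 at 3 h and by 0.65 ± 0.08 at 48 h (SE, adjusted p = 0.0034 and 0.00026), and under spike-in scaling by 0.34 and 1.17.

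Of 28 ITAM signalling genes 24 were tested: 3 were higher and 12 lower at 3 h, and 12 higher and 8 lower at 48 h, against 19.6% and 25.8% of all genes at 3 h and 23.5% and 37.1% at 48 h. With spike-in scaling the counts were 2 and 4 at 3 h and 11 and 2 at 48 h. Lcp2, the SLP-76 adaptor, rose by 3.25 ± 0.12 at 48 h (SE, adjusted p = 5.24e-07), and Plcg1, phospholipase Cγ1, fell by 2.29 ± 0.11 (adjusted p = 1.85e-06). Of 20 inhibitory signalling genes 17 were tested, with 2 higher and 9 lower at 3 h and 9 higher and 5 lower at 48 h, beside the same shares of all genes. With spike-in scaling they were 1 and 2 at 3 h and 5 and 2 at 48 h. The inhibitory receptors Cd300a and Pirb were higher at 48 h by at least 12.7-fold and at least 10.03-fold (adjusted p = 0.000238 and 1.95e-05), whereas Ptpn22, a lymphocyte phosphatase, changed by -3.87 ± 0.45 with 1 of its 48 h arrays under the filter level (adjusted p = 0.000196).

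Of 15 listed receptors that signal through the gamma chain or Tyrobp 11 were tested, and 7 were higher and 0 lower at 48 h by limma, against 23.5% and 37.1% of all genes. The other 4 (Trem1, Trem2, Trem3 and Gp6) were not called, with fitted changes of 1.93, -1.06, -0.88 and 0.44. Their median fitted log2 change at 48 h was 5.32, or 3.33 with genes under the filter level taken at their bound, against -0.19 over all genes tested. Most passed the filter only through the late arrays. The C-type lectins Clec4d and Clec4e were higher at 48 h by at least 91.7-fold and at least 37.9-fold (adjusted p = 3.35e-07 and 2.58e-06), and Cd300lb by at least 48.5-fold (adjusted p = 2.24e-06).

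Of 26 genes of phagocytic uptake 21 were tested, and 10 were higher and 5 lower at 48 h, against 23.5% and 37.1% of all genes, or 7 and 0 with spike-in scaling (limma). Myo1f, an unconventional myosin of myeloid cells, rose by 4.92 ± 0.20 on the log2 scale (SE, adjusted p = 8.04e-07), and the myosin gene Myo10 was at least 2.77-fold lower (adjusted p = 0.000368), a fall not called under spike-in scaling (-1.03, adjusted p = 0.0949). Pld1, a phospholipase D, gave 59.96 and 81.3 at 48 h, against 16 and 18.6 in vehicle C10, where 16 is the floor. It was called higher (adjusted p = 0.00339), but with its mean under the filter level in both groups it has no measured fold. Medians of the lists at 3 h were -0.76 for other Fc receptors, -0.55 for ITAM signalling, -0.49 for inhibitory signalling, -0.16 for the adaptor-coupled receptors and -0.27 for uptake, against -0.06 over all genes. Under spike-in scaling they were -0.12, 0.19, 0.14, 0.46 and 0.43, beside the shift of 0.70 of all probe sets. With genes under the filter level taken at their bound, as 9 of 11 adaptor-coupled receptors were at 3 h, the median of that list was 0. Its values of -0.16 and 0.46 thus rest mostly on signals under the filter level.

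**Figure D5:**
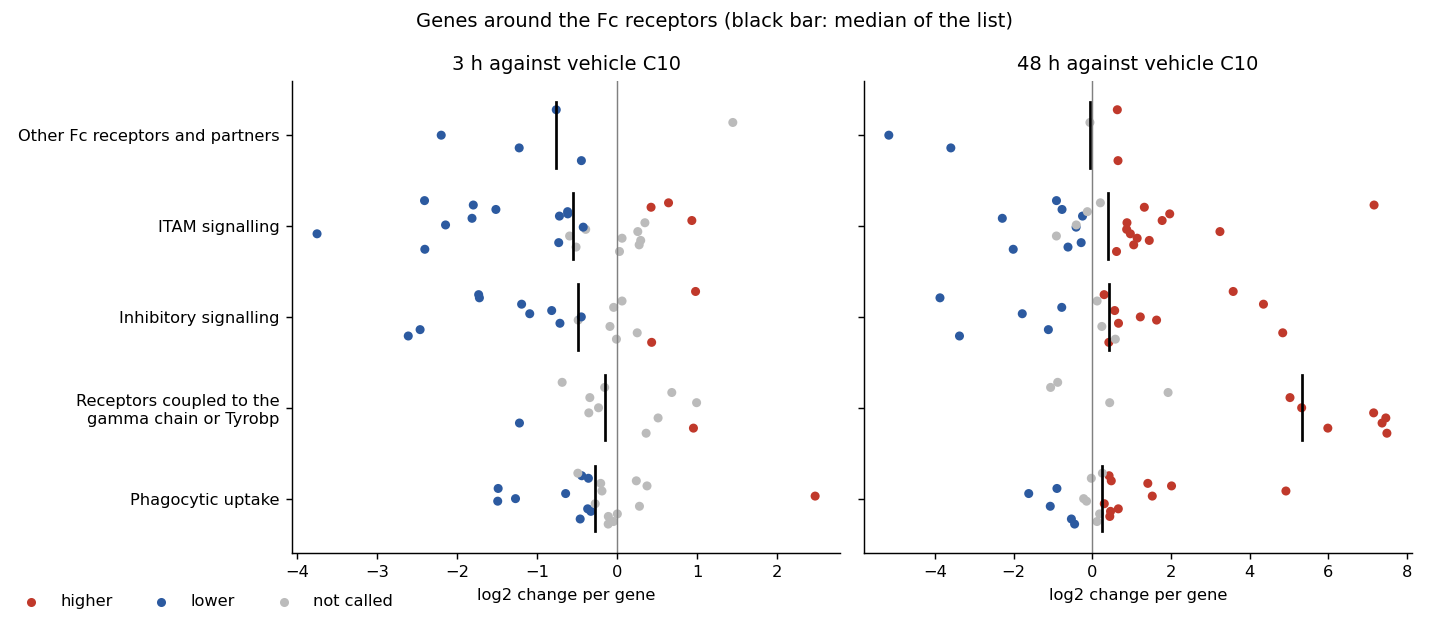
Fitted log2 change per gene (horizontal axis, 1 probe set per gene) in 5 lists of genes around the Fc receptors, at 3 h and 48 h against vehicle C10; red and blue points are genes called higher and lower, grey points are not called, and black bars are list medians, of which 4 of 5 at 3 h turned positive under spike-in scaling. At 48 h 7 of 11 receptors coupled to the gamma chain or Tyrobp were called higher, at fitted values that rest on vehicle signals under the filter level. At 3 h the median of the 11 was 0 with genes under the filter level taken at their bound.

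The genes whose log2 signal was most like a member's over the 12 arrays, by Pearson correlation as a measure of likeness with no test, were as follows. Nearest to Fcgr1 1417876_at were Plekhg1 (0.995), Slfn2 (0.994) and Dnajb6 (0.993), and Slfn2 changed by -1.84 at 3 h and by 4.28 at 48 h. Nearest to Fcgr2b were both probe sets of Itm2b (0.995 and 0.993) and Grn (0.994), which changed by -1.42 at 3 h and by 2.86 at 48 h. The nearest to Fcgr3 were Ifitm1 (0.997), Il1rn (0.997) and Tdrd7 (0.996), and to Fcgr4 Sectm1a (0.994), Clec4n (0.99) and Ccl12 (0.989).

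Fcer1g was most like Trim56 (0.986), Cd86 (0.985) and Fgl2 (0.982). Fcrla was most like Fcmr (0.99), Ppp4r3b (0.974) and Vcpkmt (0.972). The nearest to Fcgrt, at 0.878 for Tnrc6a, Camta1 and Adgre1, were less alike than these. The 12 arrays are pairs of duplicates from 6 conditions, so these values mostly compare the shapes of 6-point courses.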

How the data were processed

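RNA extracted with Trizol was labelled with biotin and hybridised to one-colour arrays, per the labels' protocols. By their range, the values the authors deposited are intensities on a linear scale, 1 per probe set. Their means without the outer 2% on each side were equal in all arrays, so they had been scaled between arrays; the scaling method is not given in the sources used here. The deposited intensities of all 45101 probe sets were taken to log2 and quantile normalised, 64 control probe sets were left out and signals under 16 set to 16. Probe sets were tested where log2 signal exceeded 6.22 (a signal of 74.6, the median of all values) in at least 2 arrays.

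Names came from the platform annotation, updated by Entrez gene ID through RefSeq, which held 34741 of the 34945 single-gene probe sets; 932 others had several genes and 9160 none. Sample titles gave the groups and the replicate numbers. Tests used limma (3.58.1) in R (4.3.3), 1 mean per group over all 12 arrays, with 1.61 prior and 6 residual degrees of freedom, two-sided, with Benjamini-Hochberg adjustment over 26524 probe sets per comparison at adjusted p below 0.05. The fit was tested on simulated data. A change against a group with both arrays below the filter level is a bound (at least N-fold), namely the other group's mean divided by that level. Lists used 1 probe set per gene, the one with the highest mean.

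Named genes were every member, of each list the 3 tested genes with the largest change at 48 h and the first in list order called lower, the 3 probe sets most like each member's brightest one, and Syk, Tyrobp, Inpp5d and B2m. Members and lists were chosen with earlier results of these data known. The alternatives were other scalings, filters and floors, the brightest probe set per gene, the groups compared alone, an intensity trend, a replicate block, HAFTL as the control, and leaving out each array.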

Additional observations from a re-analysis of the deposited data

Results flagged for a closer look

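In 5 probe sets the change against vehicle C10 at 48 h differed in direction from that at 3 h, both past the threshold. They were selected for this, so the difference between the times follows from the selection and is given without a test. The 48 h change exceeded the 3 h change by 7.44 ± 0.14 on the log2 scale for Fcgr1 1417876_at (SE, n = 2 per group), the high-affinity IgG receptor. For Fcgr2b, the inhibitory receptor, it did so by 2.01 ± 0.08 for 1435476_a_at, 1.72 ± 0.09 for 1435477_s_at, 2.24 ± 0.10 for 1451941_a_at and 2.17 ± 0.08 for 1455332_x_at. The 3 h falls of Fcgr2b, unlike its 48 h rises, changed sign under spike-in scaling.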

How the results depend on the processing

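Over 8 comparisons the 12 probe sets gave 96 changes, of which 62 were called and 24 were called under no setting. Of the 1661 values of the other changes under alternatives, 1565 kept direction and call, 65 lost the call, 16 gained it and 15 changed sign. Scaling to spike-in controls changed the sign at 3 h of the Fcgr2b probe sets (0.39, 0.36, 0.17 and 0.16), at 12 h of Fcgr1 (0.28 and 0.26) and of Fcgr2b 1451941_a_at (0.68) and 1455332_x_at (0.75, or 0.025 with median centring), and from 12 h to 24 h of Fcrla 1419907_s_at (-0.16, and -0.18 to 0.64 when leaving out each array, -0.18 being without 24 h replicate 2). With HAFTL as the control the 12 h changes of Fcgr1 were 0.69 and 0.0037, and the 3 h changes of Fcrla 0.60 and 0.41. With that control 4 other changes gained the call and 1 lost it. Spike-in scaling left 1 probe set lower at 3 h, 1 higher and 1 lower from 3 h to 12 h, 5 higher from 12 h to 24 h, 3 higher from 24 h to 48 h and 0 lower in HAFTL. With 1 probe set per gene 7 were tested, and counts were 3 lower at 3 h, 5 higher and 1 lower at both 24 h and 48 h, 3 higher and 1 lower from 3 h to 12 h, 5 and 4 higher in the next steps, and 6 by the F test, by construction. The compared groups alone gave 2 higher and 1 lower from 3 h to 12 h, 3 higher from 24 h to 48 h and 2 lower in HAFTL. An intensity trend gave 1 higher and a floor of 64 or a filter at the 70th percentile also gave 1 higher at 3 h; the trend gave 5 lower at 12 h and 1 higher in HAFTL. Except where stated, the cause was not tested. Leaving out each array gave 0 to 1 higher at 3 h (1 without 3 h replicate 2), 4 to 6 higher and 1 to 3 lower from 3 h to 12 h (1 lower without 3 h replicate 2 or 12 h replicate 1), and 5 to 8 higher and 0 to 1 lower from 24 h to 48 h (5 higher without 24 h replicate 2, 1 lower without 24 h replicate 1). After quantile normalisation same-numbered samples did not deviate together (correlations of -0.0341 to 0.0266, 0 of 15 pairs over 0.1). Normalisation removes shifts shared by whole arrays, so this does not settle whether the numbers pair samples. With the replicate block counts were within 1.5 times, with 7 probe sets lower at 3 h and 9 higher at 48 h, and 1 call was lost. Signals under the filter level limit folds of Fcgr3, Fcgr4 and late Fcrla to bounds.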

Other observations

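In the RefSeq gene order, 5 of the genes lie in 1 stretch of chromosome 1, and they did not move alike. From Fcrlb to Fcer1g there are 14 protein-coding genes, with Fcrla, Fcgr2b, Fcgr4 and Fcgr3 at one end and Fcer1g at the other. Fcrla fell and its neighbours Fcgr2b, Fcgr4 and Fcgr3 rose at 48 h. Of 9 other genes in the stretch 3 were tested at 48 h: Cfap126, next to Fcgr3, changed by -1.69 ± 0.47 on the log2 scale (SE, adjusted p = 0.0164, limma), Sdhc by -0.08 (adjusted p = 0.462) and Tomm40l by -0.08 (adjusted p = 0.692). These neighbours were looked at after the values of the members had been seen.

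Read on the gene's strand alone, the letters TTCCTC stood within 60 bases before the start in Fcgr1, Fcgr3, Fcgr4 and Fcrla, 4 of 8 members. They did so in 832 of 27025 promoters (3.08%). That window and that strand were chosen after the sequences had been seen, so the shares cannot be weighed against each other. The longest run shared between members, TTCCTCttttctaat, stood in Fcgr1 and Fcrla, with first bases at -55 and -37. On either strand 3 of 27025 promoters hold it, those of Fcgr1 and Fcrla included. The run was selected for being the longest, so a low count follows in part from the selection. Whether Fcgr1 and Fcrla share more sequence than other promoters do was not tested. The pair moved in opposite directions at 48 h, with fitted log2 changes of 5.59 for Fcgr1 1417876_at and -3.56 for Fcrla 1419907_s_at.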
